A study of Mus musculus with 3 samples.

Results

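The tumour necrosis factor (TNF) superfamily was described in 3 mouse mammary tumours: its ligands, the receptors they bind and the TRAF proteins that many of these receptors recruit. The rule that picks members reads gene symbols and uses no measured value. A symbol was a member if it was Tnf, a numbered Tnfsf or Tnfrsf gene, one of the family's genes with a name of its own (Lta, Ltb, Ltbr, Eda, Edar, Ngfr, Cd27, Cd40, Cd40lg, Cd70, Fas, Fasl) or Traf1 to Traf7. The rule found 51 of the 47480 genes in the tables, namely 18 ligands, 7 receptors with a death domain, 3 decoy or soluble receptors, 16 receptors without a death domain and 7 TRAF genes. Relt and Eda2r, which are receptors of the family, have symbols that the rule does not match and are given apart.

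The tumours were of the FVB-MMTV-Neu strain, whose transgene carries rat Neu (Erbb2) under the mouse mammary tumour virus promoter, which is active in mammary epithelium. According to the sample labels syngeneic hosts received them by orthotopic injection, and the tumours were let grow to 5 mm across and kept for a further 7 days with no treatment. The series' design text instead places the tumours in untreated MMTV-Neu mice, and whether the 3 came from separate donors is not labelled, so the spread between them may be partly technical. All belong to 1 untreated group with 1 library each (n = 3), so no conditions were compared and no p-value was computed; tumours 1, 2 and 3 are numbered in order of deposition. All were sequenced in 1 run, tumour 1 in lane 1 and both others in lane 5, and lane and tumour 1 cannot be told apart.

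Most ligands of this family are trimers anchored in the membrane of the cell that makes them, and several are released by proteases. A trimer clusters its receptors, which have no enzyme activity of their own. Receptors with a death domain can recruit adaptors that lead to caspase activation, whereas the others bind TRAF proteins directly and activate the NF-kappaB and MAP kinase pathways. Decoy and soluble receptors bind a ligand without passing on a full signal. In the mammary gland the family is best known for RANK ligand (Tnfsf11) and its receptor RANK (Tnfrsf11a), through which progesterone drives the growth of the epithelium, while immune cells use many of the other pairs for costimulation.

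The libraries held 47449153, 11388769 and 17147394 estimated reads for tumours 1, 2 and 3. Levels are given as CPM, the counts of a gene divided by the library total and multiplied up to a fixed size, with totals scaled by the trimmed mean of M-values (TMM), with factors of 1.48, 0.722 and 0.936. A total of 12710 genes passed a filter on low counts, which required a gene to reach a minimum CPM in all 3 tumours. The genes that define the labelled tissue were found: 5 of 5 luminal epithelial markers passed the filter and summed to 1501, 1287 and 1917 CPM. The sums of markers of several other cell types were spread more widely, although the sum of neutrophil markers was not (37.9, 30.4 and 41.1 CPM). The single neutrophil markers were less even than their sum. Cxcr2 was at 4.63, 0.870 and 1.08 CPM in tumours 1, 2 and 3, more than 4-fold higher in tumour 1. Csf3r was highest in tumour 2, and S100a8 and S100a9 were highest in tumour 3. Summed levels in tumours 1, 2 and 3 were 327, 2926 and 1740 CPM for 5 macrophage markers, 123, 887 and 299 CPM for 4 endothelial markers, 540.3, 51.0 and 58.5 CPM for 5 basal epithelial markers, and 4.54, 45187 and 19240 CPM for 6 skeletal muscle genes. In bulk RNA, fewer cells of a type and less RNA per cell cannot be told apart.

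The members were expressed at very unequal levels, and most of those past the filter were lower in tumour 1 than in the others. Of the 51 members, 31 passed the filter. The 20 others had mean levels from 0 to 3.73 CPM, 11 members had 0 counts in at least 1 tumour, and Tnfsf4 had 0 counts in all 3. Summed over the 51 members, the level was 921 CPM in tumour 1, 1932 in tumour 2 and 1502 in tumour 3. With plain library totals in place of TMM the sums were close to each other, at 1363, 1394 and 1406 CPM. Of the 31 members past the filter, 21 were lower in tumour 1 than in both other tumours, 9 were higher and 1 (Traf6) lay between them. Their median difference in log2 CPM (prior count 2) between tumour 1 and the mean of the others was -1.35, beside 0.11 over all genes tested. Of all genes tested, 47.1% were highest in tumour 1, beside those 9 of 31 members. The share of all genes lowest there is not given. For tumours 2 and 3 the members' medians were 0.67 and 0.41, beside -0.09 and 0.01. Without the filter, over the 50 members with any counts, the median for tumour 1 was 0.24, beside 0.30 over all genes, so the lower median applies to the members that passed the filter and not to the family as a whole.

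A gene was called apart in a tumour when it exceeded, or fell under, each of the other tumours by 2 or more in log2 CPM (4-fold). In tumour 1, 8 of the 31 members (25.8%) lay below both others by this rule: Tnfrsf1b, Tnfrsf23, Traf2, Tnfrsf4, Tnfrsf22, Cd40, Tnfrsf25 and Tnf. Over all genes tested the share was 8.21%. A single member, Tnfrsf19, lay above both others in tumour 1 (3.23% of the members), beside 6.05% of all genes. These shares depended on the scaling, and the share below also on the filter and the prior count. With library totals, 0 of 31 members and 3.60% of all genes were called below, and 2 members and 16.2% of all genes above. Even so, 19 of 31 members still had their lowest level in tumour 1, for which the share of all genes is not given. The members' median was then -0.52, beside 0.95 over all genes.

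The sequences upstream of the start sites are shown for 4 members that lay below in tumour 1 and for Tnfrsf19, which lay above, because NF-kappaB binds DNA next to many genes of this family. Each is the 250 bases before the start of transcription in RefSeq (GRCm38.p6), written 5′ to 3′ on the strand of the gene, and capitals mark a match to GGNNTTTCC, an NF-kappaB-like motif searched on both strands.
Tnfrsf1b (chr4:145246871-145247120, minus strand): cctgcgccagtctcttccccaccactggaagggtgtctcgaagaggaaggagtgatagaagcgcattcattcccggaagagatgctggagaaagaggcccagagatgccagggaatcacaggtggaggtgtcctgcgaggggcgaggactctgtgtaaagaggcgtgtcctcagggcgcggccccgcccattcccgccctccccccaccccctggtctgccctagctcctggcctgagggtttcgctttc
Traf2 (chr2:25546941-25547190, minus strand): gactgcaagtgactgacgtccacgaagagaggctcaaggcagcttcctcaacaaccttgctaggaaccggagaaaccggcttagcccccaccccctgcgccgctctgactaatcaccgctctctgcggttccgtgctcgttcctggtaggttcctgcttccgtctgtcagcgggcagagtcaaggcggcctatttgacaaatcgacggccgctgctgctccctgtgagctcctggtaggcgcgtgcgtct
Tnf (chr17:35202008-35202257, minus strand): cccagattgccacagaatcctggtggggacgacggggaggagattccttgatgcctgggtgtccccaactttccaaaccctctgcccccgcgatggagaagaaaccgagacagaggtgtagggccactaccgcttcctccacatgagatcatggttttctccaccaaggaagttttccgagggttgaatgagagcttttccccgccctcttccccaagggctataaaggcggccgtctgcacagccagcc
Tnfrsf25 (chr4:152115684-152115933, plus strand): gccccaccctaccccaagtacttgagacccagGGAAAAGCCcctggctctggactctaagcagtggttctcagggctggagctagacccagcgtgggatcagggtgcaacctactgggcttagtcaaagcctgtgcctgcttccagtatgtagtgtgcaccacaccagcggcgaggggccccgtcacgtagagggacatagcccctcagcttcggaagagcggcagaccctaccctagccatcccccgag
Tnfrsf19 (chr14:61037988-61038237, minus strand): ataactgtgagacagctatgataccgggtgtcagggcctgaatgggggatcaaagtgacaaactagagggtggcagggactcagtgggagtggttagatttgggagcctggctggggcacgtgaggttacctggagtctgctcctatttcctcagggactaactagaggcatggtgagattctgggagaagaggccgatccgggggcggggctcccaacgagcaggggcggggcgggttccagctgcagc
Tnfrsf25 held the motif 218 bases before its start, on the minus strand relative to the gene. Traf2 held it 32 bases after its start, outside the stretch shown, and the windows of Tnfrsf1b, Tnf and Tnfrsf19 held no match. Tnfrsf23 and Tnfrsf4, also below in tumour 1 but not shown, held no match either. The motif was thus found for 2 of the 6 members below in tumour 1 that have an entry. Among all members past the filter with an entry, it was found for 6 of 25 (24%). Tnfrsf25 and Tnfrsf19 each have another start in RefSeq, not shown, whose window held no match. In windows of 300 bases (250 before to 50 after the start), 7 of the 41 members with an entry (17.1%) held the motif, beside 1790 of 27025 genes (6.62%). The other 5 were Ltb, at 87 bases before its start, Tnfrsf9 at 42, Tnfrsf13b at 60, Edar at 198 and Traf3 at 9 and 245. A match is a run of letters and was not tested as a binding site.

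**Figure D1:**
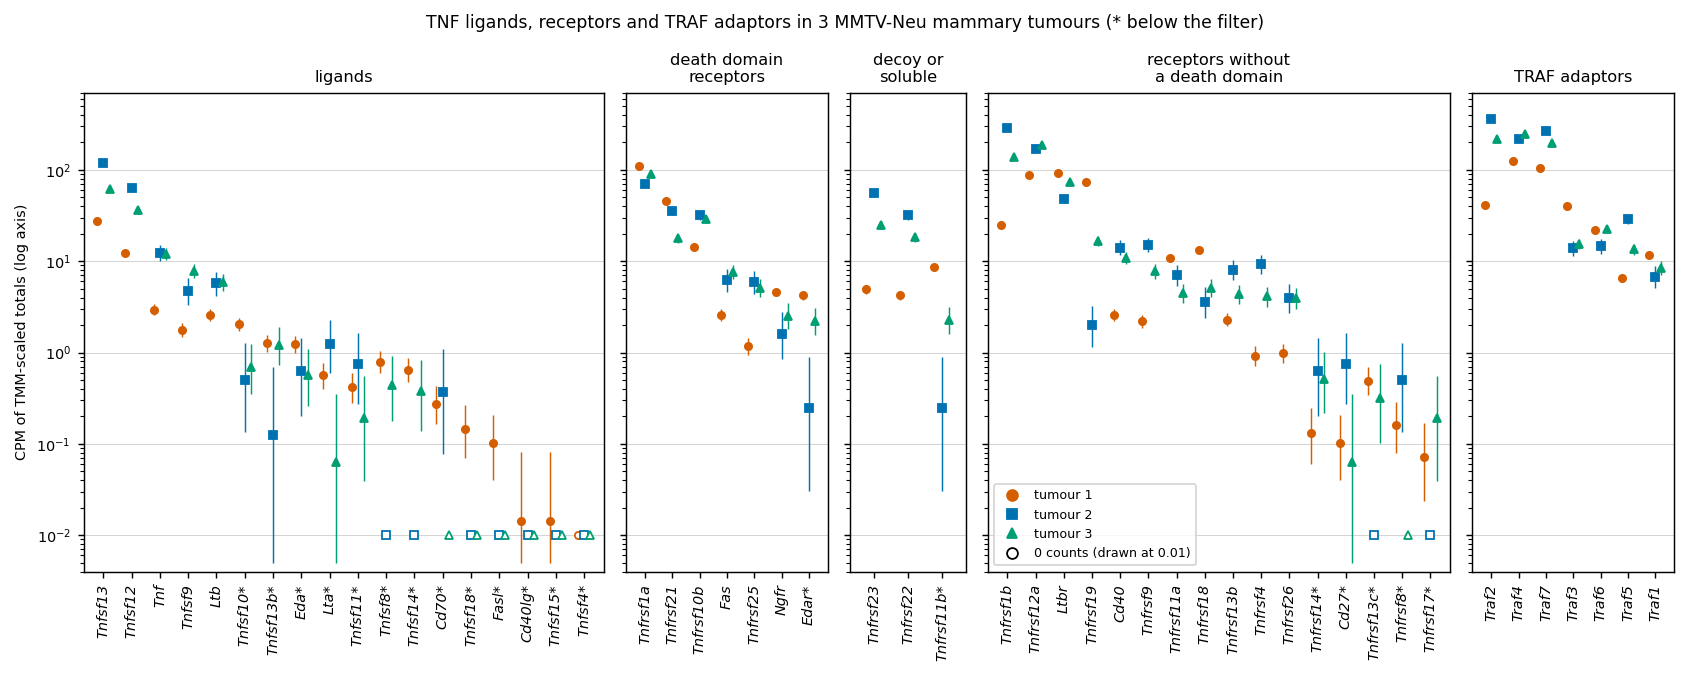
Level of each of the 51 members in each tumour, in CPM of TMM-scaled totals on a log axis, grouped by role; bars are 95% exact Poisson intervals (counting error only), open symbols mark 0 counts and asterisks mark the 20 members below the filter. Tumour 1 lies lowest for Tnfsf12, Tnfsf13, Tnfrsf1b, both decoy receptors past the filter and Traf2, and highest for Tnfrsf19.

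Few of the ligands were detected well. Of the 18 ligands, 5 passed the filter and 13 had at most 10 counts in tumour 2, the shallowest library. Tnfsf13 (APRIL, a survival factor for B and plasma cells) was the highest ligand, at 27.5, 119.7 and 62.0 CPM in tumours 1, 2 and 3. Tnfsf12 (TWEAK), its neighbour on chromosome 11, was at 12.2, 63.1 and 36.1 CPM. Both were lowest in tumour 1 and highest in tumour 2, and the order of the tumours was the same for the pair. Tnfsf12 was 5.18-fold higher in tumour 2 (95% interval from counting error 4.63 to 5.79) and 2.96-fold higher in tumour 3 (2.66 to 3.30) than in tumour 1, so it missed the 4-fold rule against tumour 3.

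These genes lie at chr11:69682846-69685784 (Tnfsf13) and chr11:69686250-69695849 (Tnfsf12) on the minus strand of GRCm38, 466 bases apart, and a readthrough gene, Tnfsfm13, spans both. Of the 50-base words in their transcripts, 57.27% of those of Tnfsf13 and 46.75% of those of Tnfsf12 also occur in another gene, mainly Tnfsfm13. Their split between the 3 symbols is therefore uncertain. The sum of the 3 was 46.6, 186 and 99.6 CPM and kept the order of the tumours.

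Tnf, the founding inflammatory cytokine of the family (chr17:35199381-35202007, minus strand), was at 2.95, 12.4 and 12.01 CPM in tumours 1, 2 and 3. It was 4.21-fold higher in tumour 2 (3.28 to 5.38) and 4.07-fold higher in tumour 3 (3.32 to 4.99) than in tumour 1. Tumours 2 and 3 were close to each other and well apart from tumour 1, but both intervals include 4, so the call rests on the point values. With a trend with GC content and length removed, the differences were -1.67 and -1.57 in log2 CPM, and Tnf was no longer called. Its neighbour Ltb, the membrane anchor of the lymphotoxin trimer, was at 2.59, 5.72 and 5.91 CPM. Its difference between tumour 1 and the mean of the others was -1.15 in log2 CPM and 0.14 with the same trend removed, so its direction was not stable. Lta, the third gene of this cluster, stayed below the filter with 39, 10 and 1 counts. Tnfsf9, a costimulatory ligand, was at 1.78, 4.72 and 7.88 CPM, highest in tumour 3.

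The other 13 ligands were below the filter. Of the 20 members below the filter, 12 had their highest CPM in tumour 1, but the share over all genes below the filter is not given. The filter requires a minimum CPM in every library, so genes low in any tumour, tumour 2 included, fail it by construction. Tnfsf10 (TRAIL, a death ligand) had 142, 4 and 11 counts, and Tnfsf13b (BAFF, a B cell survival factor) had 88, 1 and 19. Tnfsf8 had 55, 0 and 7 counts and Tnfsf14 (LIGHT) 45, 0 and 6. Tumour 1 was sequenced most deeply, and a count of 0 there allowed a level of at most 0.0434 CPM, beside 0.373 CPM in tumour 2 and 0.191 in tumour 3 (3 counts). RANK ligand (Tnfsf11) had 29, 6 and 3 counts, Cd70 had 19, 3 and 0, and Eda (ectodysplasin) was at 1.24, 0.621 and 0.572 CPM. Death ligand Fasl had 7, 0 and 0 counts, Tnfsf18 had 10, 0 and 0, and Cd40lg and Tnfsf15 had 1, 0 and 0. For these 4 the shallower libraries could not show a level of the size seen in tumour 1.

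Receptors with a death domain were divided between the directions. Their summed level was 185, 152 and 155 CPM in tumours 1, 2 and 3, and the median difference of the 6 past the filter was -0.30. Tnfrsf1a, the widely expressed TNF receptor, was at 111, 69.8 and 90.9 CPM, highest in tumour 1. Tnfrsf21 was at 46.0, 35.9 and 17.8 CPM, and Ngfr, the neurotrophin receptor of the family, at 4.61, 1.62 and 2.54. These 3 were higher in tumour 1 than in both others, none by 4-fold. The other 3 past the filter were lowest in tumour 1. Tnfrsf10b, the mouse TRAIL receptor, was at 14.5, 32.4 and 28.7 CPM, and Fas at 2.59, 6.21 and 7.69. Tnfrsf25, a costimulatory receptor of T cells (chr4:152115934-152120119), was at 1.17, 5.97 and 5.08 CPM and was the death domain receptor called below in tumour 1, by 5.09-fold against tumour 2 (3.49 to 7.37) and 4.34-fold against tumour 3 (3.15 to 5.99). With the GC and length trend removed these differences were -1.11 and -1.10 in log2 CPM, and Tnfrsf25 was not called. Edar, the receptor of ectodysplasin, had 293, 2 and 35 counts and did not pass the filter. The ratio of tumour 1 to tumour 2 was 17.0 for Edar, with a counting interval of 4.68 to 141.

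The decoy receptors past the filter lay among the members furthest below the others in tumour 1. Tnfrsf23 and Tnfrsf22 are decoy receptors of TRAIL that lie side by side on chromosome 7 (chr7:143665809-143685872 and chr7:143634806-143649661, minus strand). Tnfrsf23 was at 4.93, 56.4 and 24.9 CPM, and was 11.4-fold higher in tumour 2 (9.92 to 13.2) and 5.05-fold higher in tumour 3 (4.36 to 5.86) than in tumour 1. Tnfrsf22 was at 4.25, 31.8 and 18.4 CPM, 7.49-fold higher in tumour 2 (6.31 to 8.88) and 4.32-fold in tumour 3 (3.66 to 5.10). Their transcripts share sequence: 17.34% of the 50-base words of Tnfrsf22 occur in Tnfrsf23, so the split between them is uncertain, but their sum had the same order at 9.18, 88.2 and 43.3 CPM. Counting every other gene, the shared words were 27.42% for Tnfrsf22 and 19.31% for Tnfrsf23, which the sum does not settle. Exons of an antisense gene, E230032D23Rik, overlap Tnfrsf23 and its neighbour Tnfrsf26. Tnfrsf26, the third gene of this cluster and a receptor without a death domain, was at 0.983, 3.98 and 3.94 CPM and fell just short of the rule, but was called below with the GC and length trend removed, at -2.55 against tumour 2 and -2.31 against tumour 3 in log2 CPM. Osteoprotegerin (Tnfrsf11b), the soluble decoy of RANK ligand, ran the other way with 598, 2 and 36 counts, or 8.64, 0.249 and 2.29 CPM, and did not pass the filter. The ratio of tumour 1 to tumour 2 was 34.8, with a counting interval of 9.59 to 288.

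Receptors without a death domain held members far below and far above the others in tumour 1, among them Tnfrsf1b and Tnfrsf19. Tnfrsf1b, the TNF receptor of leukocytes and endothelium (chr4:145213463-145246870, minus strand), was at 25.2, 287 and 138 CPM in tumours 1, 2 and 3. It was 11.4-fold higher in tumour 2 (10.7 to 12.1) and 5.46-fold higher in tumour 3 (5.12 to 5.82) than in tumour 1. The 3 values were far apart beyond counting error, lowest in tumour 1 and highest in tumour 2. Per kilobase of transcript, Tnfrsf1a was above Tnfrsf1b in tumour 1 (51.7 against 6.61 CPM) and in tumour 3 (42.2 against 36.1). In tumour 2 Tnfrsf1a was under Tnfrsf1b (32.4 against 75.3).

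Tnfrsf19 (TROY, a receptor found in several epithelial progenitors; chr14:60963875-61046490, minus strand) was at 72.8, 1.99 and 16.7 CPM, from 5038, 16 and 263 counts. It was 36.6-fold higher in tumour 1 than in tumour 2 (22.5 to 64.1) and 4.36-fold higher than in tumour 3 (3.85 to 4.95). All 3 tumours differed beyond counting error, since tumour 3 was also 8.41-fold above tumour 2 (5.08 to 14.9). It was thereby also the member called below both others in tumour 2, where 1 of 31 members and 0.59% of all genes were below. No member was above both others in tumour 2, beside 0.252% of all genes. In tumour 3, no member was above (0.0787% of all genes) or below (0.0787%) both others. The difference of Tnfrsf19 between tumours 1 and 3 was 1.78 in log2 CPM once the trend with GC content and length was removed, which is under the 4-fold rule; Tnfrsf18 then took its place, at 2.75 against tumour 2 and 2.24 against tumour 3. All 5 basal epithelial markers lay 4-fold above both others in tumour 1, and the part of these cells in the level of Tnfrsf19 was not tested.

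**Figure D2:**
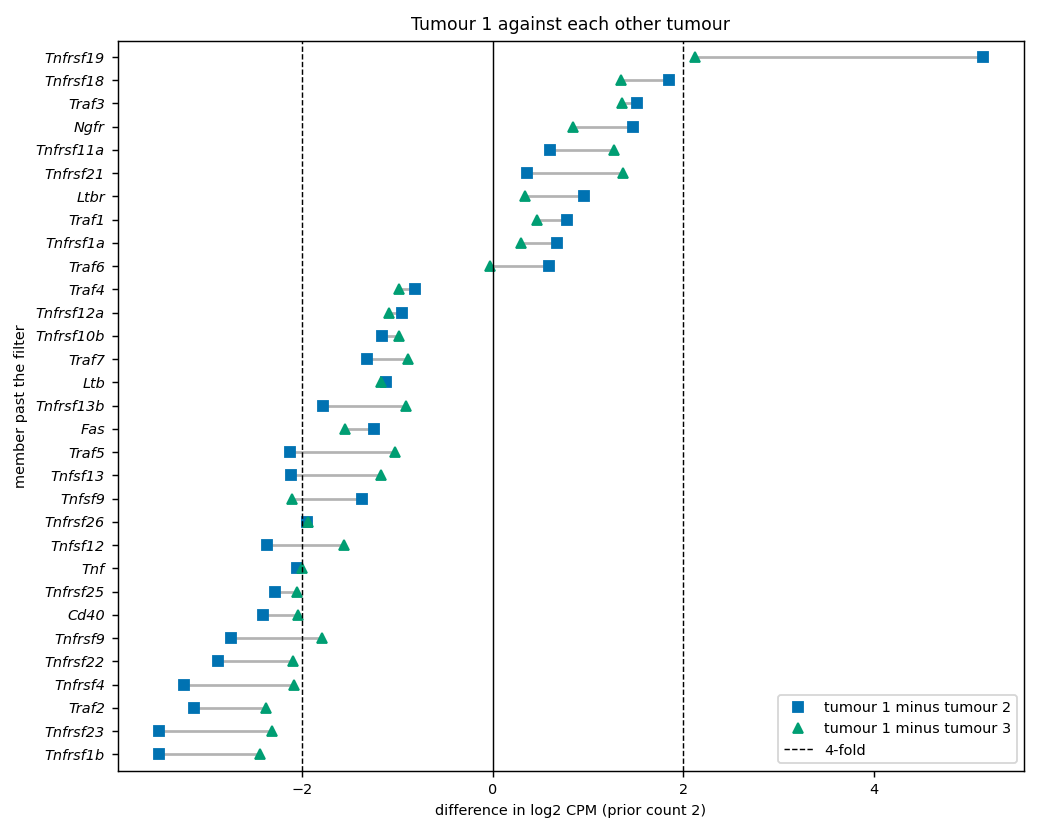
Difference in log2 CPM (prior count 2) between tumour 1 and tumour 2 (squares) and between tumour 1 and tumour 3 (triangles) for the 31 members past the filter; dashed lines mark 4-fold. For 8 members both symbols lie beyond the left line, from Tnf at the line to Tnfrsf1b, and for Tnfrsf19 both lie beyond the right line.

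Tnfrsf4, Cd40, Tnfrsf9 and Tnfrsf13b, receptors of lymphocytes and antigen-presenting cells, were each lowest in tumour 1 and highest in tumour 2. Tnfrsf4 (OX40) was at 0.925, 9.32 and 4.13 CPM, 10.1-fold higher in tumour 2 (7.12 to 14.3) and 4.47-fold higher in tumour 3 (3.11 to 6.41) than in tumour 1. With the GC and length trend removed its differences were -2.41 and -1.20 in log2 CPM, which ends the call. Cd40, through which T cells activate B cells and dendritic cells (chr2:165055627-165072948), was at 2.59, 14.0 and 10.9 CPM, 5.43-fold higher in tumour 2 (4.25 to 6.91) and 4.20-fold in tumour 3 (3.39 to 5.21). Tnfrsf9 was at 2.20, 15.2 and 7.75 CPM and was 3.53-fold higher in tumour 3 than in tumour 1, which left it outside the rule. Tnfrsf13b (TACI), a receptor for APRIL and BAFF, was at 2.30, 8.08 and 4.39 CPM.

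Tnfrsf18 (GITR), found on regulatory T cells, ran against this order, at 13.2, 3.60 and 5.15 CPM. It lies 9552 bases from Tnfrsf4 on the plus strand of chromosome 4 (chr4:156026164-156028895, Tnfrsf4 at chr4:156013843-156016612), so these neighbours were ordered oppositely across the tumours. An antisense gene, Gm16008, shares 18.72% of the 50-base words of Tnfrsf18, and reads of the pair cannot be told apart without a strand setting. Gm16008 itself was at 0.434, 0.373 and 0.191 CPM.

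Markers of the cells that carry these receptors were measured in the same libraries. The summed level of 7 T and NK cell markers was 14.9, 24.9 and 32.3 CPM in tumours 1, 2 and 3, and 4 of the 7 passed the filter, with 0 of them at 0 in any tumour. Lck held much of this sum, at 12.3, 11.9 and 22.3 CPM. Cd4 (0.824, 7.21 and 3.62) and Nkg7 (0.463, 2.86 and 3.37) were called below in tumour 1, whereas Cd8a, with 19, 1 and 2 counts, was highest there. The 5 dendritic cell markers summed to 28.1, 87.6 and 51.2 CPM and all passed, with Batf3 at 3.53, 53.3 and 33.3 and Itgax, in the other direction, at 16.7, 6.71 and 6.74. The 5 macrophage markers all passed too, and they were not of 1 direction. C1qa (161, 2426 and 1369 CPM), Csf1r (82.5, 229.8 and 203) and Mrc1 (45.4, 241 and 134) were lowest in tumour 1, whereas Cd68 (24.5, 18.3 and 22.8) and Adgre1 (13.8, 11.6 and 11.9) were highest there. Most of the endothelial sum was Pecam1, at 56.4, 775 and 231 CPM, while Cdh5 was at 41.2, 72.5 and 46.3, Kdr at 19.2, 33.6 and 15.6, and Tek at 5.87, 6.46 and 5.59. B and plasma cell markers were near the limit, with 1 of 5 past the filter, sums of 0.940, 1.37 and 3.24 CPM, and 4 of the 5 at 0 in tumour 2. The dendritic cell, macrophage and endothelial sums were lowest in tumour 1 and highest in tumour 2, an order set by part of each list, and the part of these cells in the members' levels was not tested. Among the receptors below the filter, Tnfrsf13c (the BAFF receptor of B cells) had 34, 0 and 5 counts, Tnfrsf17 had 5, 0 and 3, Cd27 had 7, 6 and 1, Tnfrsf8 had 11, 4 and 0, and Tnfrsf14 had 9, 5 and 8.

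The remaining receptors without a death domain are found on epithelium and stroma and spanned both directions. Tnfrsf12a (Fn14, the receptor of TWEAK; chr17:23675445-23677468) was at 87.0, 168 and 185 CPM. Its difference between tumour 1 and the mean of the others was -1.02 in log2 CPM, and 0.17 with the GC and length trend removed, so its direction depended on the setting. Ltbr, the lymphotoxin receptor, was at 93.5, 48.2 and 74.0 CPM, and RANK (Tnfrsf11a) at 10.8, 7.08 and 4.45. RANK was thus highest in tumour 1 and detected in all 3 tumours, while its ligand had 6 counts and its soluble decoy 2 counts in tumour 2. With the GC and length trend removed, RANK was only 0.03 higher in log2 CPM in tumour 1 than in tumour 2, and 0.71 higher than in tumour 3.

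All 7 TRAF genes passed the filter, and their sum was 352, 912 and 719 CPM in tumours 1, 2 and 3. The largest difference was that of Traf2, the adaptor that brings ubiquitin ligases to TNF receptors (chr2:25517982-25546940, minus strand). It was at 41.4, 364 and 216 CPM, 8.79-fold higher in tumour 2 (8.35 to 9.26) and 5.21-fold higher in tumour 3 (4.96 to 5.48) than in tumour 1. Traf5, which is closely related in function, was at 6.58, 29.0 and 13.5 CPM. Traf7 was at 106, 265 and 197 CPM, and Traf4, first isolated from breast cancer, at 125, 219.6 and 247 CPM. These 4 were lowest in tumour 1, Traf4 by the smallest margin. With library totals neither Traf4 nor Tnfrsf12a was lower in tumour 1 than in tumour 2.

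The other TRAF genes were not lowest in tumour 1. Traf3, which holds back the alternative NF-kappaB pathway, was at 40.0, 13.9 and 15.6 CPM, 2.88-fold higher in tumour 1 than in tumour 2 (2.38 to 3.51) and 2.57-fold higher than in tumour 3 (2.26 to 2.94). Traf1 was at 11.6, 6.71 and 8.39 CPM. Traf6, used by Cd40, RANK and the Toll-like receptors, was at 21.9, 14.5 and 22.4 CPM, and its small difference of 0.28 in log2 CPM became -0.45 with the GC and length trend removed. Traf2 and Traf3, which act in the same complexes, were therefore ordered oppositely between tumour 1 and the others.

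Counting error was small for some of the called members and not for others. Of the 8 below in tumour 1, Tnfrsf1b, Traf2 and Tnfrsf23 had lower bounds of at least 4 against both other tumours. For the other 5 a bound fell under 4, and just outside the rule lay Tnfrsf26, at 4.05-fold and 4.01-fold on the linear scale, which the prior count moves under 4.

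Tumours 2 and 3 share a lane and were compared with each other at 2-fold. Of the 31 members, 5 (16.1%) were at least 2-fold higher in tumour 2, beside 7.39% of all genes: Tnfrsf23 at 2.26-fold, Tnfrsf4 at 2.26-fold, Traf5 at 2.15-fold, Tnfrsf1b at 2.09-fold and Tnfrsf21 at 2.02-fold. Tnfrsf19 alone was at least 2-fold lower in tumour 2, beside 8.81% of all genes. The median difference of the members was 0.18 in log2 CPM, beside -0.03 over all genes. With library totals 0 members were 2-fold higher in tumour 2, but the share of all genes in that setting is not given.

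To compare members with each other, levels were divided by the length of the longest annotated transcript. Tnfrsf12a was the highest member in each tumour, with 149 ± 53.4 CPM per kilobase (SD, n = 3), above 95.94% of the genes tested. It was followed by Traf4 at 61.2 ± 19.8, Traf7 at 59.2 ± 25.0 and Traf2 at 50.3 ± 39.2 CPM per kilobase. Then came Tnfsf13 at 46.4 ± 31.0, Tnfrsf1a at 42.1 ± 9.64, Tnfrsf1b at 39.3 ± 34.5, Ltbr at 34.1 ± 10.8 and Tnfsf12 at 25.9 ± 17.8 CPM per kilobase. From Traf4 to Tnfsf12 neighbours in this order differed by less than their SD. A gap separated them from Tnfrsf21 at 9.17 ± 3.94, Tnfrsf23 at 8.58 ± 7.74 and Tnfrsf10b at 7.92 ± 2.98. In tumours 2 and 3 these leading genes, from Tnfrsf12a to Tnfsf12, held the first 9 ranks, whereas in tumour 1 Traf2, Tnfsf12 and Tnfrsf1b were at ranks 10, 11 and 12.

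The 23 ligand and receptor pairs of the family were set side by side on the same scale. The receptor was higher than its ligand in 3 of 3 tumours for 13 pairs, and the ligand was higher in 3 of 3 for 4 pairs. For the remaining 6 the order was mixed. Both partners passed the filter in 6 of the 23 pairs. Tnfsf12 was at 8.49, 44.0 and 25.2 CPM per kilobase in tumours 1, 2 and 3, under its receptor Tnfrsf12a at 88.4, 171 and 188. Tnf was at 1.80, 7.58 and 7.33 CPM per kilobase. Its receptors were above it in each tumour, Tnfrsf1a at 51.7, 32.4 and 42.2 and Tnfrsf1b at 6.61, 75.3 and 36.1. Tnf and Tnfrsf1b were thus lowest in tumour 1 together, while Tnfrsf1a was not. Tnfsf9 was above Tnfrsf9 in tumour 1 (1.38 against 1.04 CPM per kilobase) and tumour 3 (6.11 against 3.67), and under it in tumour 2 (3.66 against 7.17). Tnfsf13 was above Tnfrsf13b and Tnfrsf17 in 3 of 3 tumours. Tnfsf13b was above Tnfrsf13c and Tnfrsf17 in 3 of 3 tumours, from at most 88 counts. In tumour 2 this order of Tnfsf13b rested on 1 count against 0 for each receptor. The closest values elsewhere were 0.267 against 0.248 CPM per kilobase for Tnfrsf13c in tumour 1, and 0.253 against 0.234 for Tnfrsf17 in tumour 3. For Tnfsf4 with Tnfrsf4, Cd40lg with Cd40, and Tnfsf18 with Tnfrsf18 the receptor was detected in all 3 tumours and the ligand had at most 10 counts in any.

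**Figure D3:**
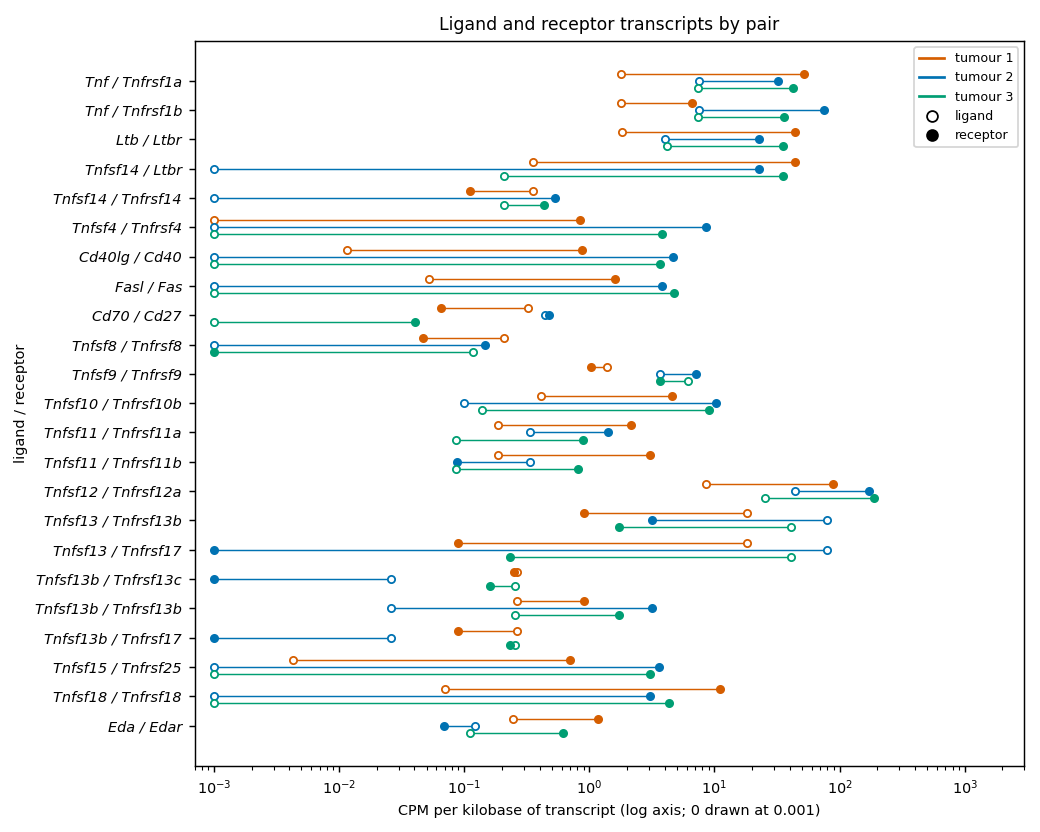
Ligand (open) and receptor (filled) levels of the 23 pairs in each tumour, in CPM per kilobase of transcript on a log axis, with 0 drawn at 0.001; lines join the partners within a tumour. In 13 pairs the receptor lies to the right of its ligand in 3 of 3 tumours, and Tnfsf13 with Tnfrsf13b and Tnfrsf17 are among the 4 in which the ligand does.

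Genes that act downstream of these receptors, or take part in ligand shedding, were taken from lists set out by function. The medians of these lists lay between -0.53 and 0.58, the latter for ligand shedding. Of 32 adaptors and regulators next to the receptors, 30 passed the filter, 2 lay above and 1 below both others in tumour 1, and their median difference was -0.37 in log2 CPM. Fadd, the death domain adaptor that recruits caspase 8, was the gene below, at 10.9, 45.6 and 48.9 CPM. Tnfaip3, the deubiquitinase A20 that limits NF-kappaB signalling, was at 14.1, 1.99 and 1.59 CPM, and Bag4, which binds the TNF receptor's death domain, at 53.8, 4.10 and 7.12, both above in tumour 1. The highest members of the list were Rbck1 at 159, 214 and 279 CPM, Ube2n at 90.0, 95.6 and 147, and Tab2 at 80.6, 89.1 and 66.3, which take part in ubiquitin chain signalling. The 2 genes above (6.67%) and 1 below (3.33%) of 30 stood beside 6.05% and 8.21% of all genes.

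All 14 genes of the IKK, NF-kappaB and IkappaB list passed the filter, with a median difference of 0.02. In tumour 1, 3 lay above both others: Ikbkb, a catalytic subunit of the IKK complex, at 129, 15.2 and 16.8 CPM, Nfkb1, the precursor of p50, at 65.3, 4.97 and 9.98, and Nfkbiz at 14.2, 1.49 and 3.43. Nfkbid lay below, at 1.27, 6.34 and 6.80 CPM. These 3 and 1 of 14 genes stood beside 6.05% above and 8.21% below over all genes tested. The highest genes of the list ran against the first 3: Nfkb2, the subunit of the alternative pathway, was at 104.5, 380 and 352 CPM, Rela at 100.3, 241 and 213, and Chuk, the other catalytic subunit of IKK, at 38.4, 129 and 114. Ikbkb and Chuk, and likewise Nfkb1 and Nfkb2, were thus ordered oppositely between tumour 1 and the others.

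Of 24 genes known to be induced by TNF and NF-kappaB, 22 passed the filter, with a median difference of -0.53. In tumour 1, 2 lay above both others, Tnfaip3 and Il1b (20.6, 2.86 and 3.24 CPM), and 2 lay below, Junb (94.7, 871 and 485 CPM) and Tnfaip6 (0.969, 8.82 and 5.53 CPM). These counts of 2 and 2 among 22 genes lie near the shares of 6.05% and 8.21% over all genes. With Junb, the highest were Nfkb2 and Ier3, the latter at 214, 111 and 106 CPM. Some genes stand in more than 1 of these lists, Tnfaip3 and Nfkb2 among them. The 5 genes of the list on ligand shedding, which holds proteases and the inactive rhomboids that regulate Adam17, all passed, none was called apart in tumour 1, and their median difference was 0.58. The sheddases Adam10 and Adam17 were highest in tumour 1, at 102, 22.4 and 33.7 CPM and at 58.2, 30.8 and 31.9 CPM. Furin was at 83.8, 104 and 86.8 CPM, Rhbdf2 at 57.6, 59.9 and 64.4, and Rhbdf1 at 73.3, 40.02 and 60.1. Relt, the family receptor outside the symbol rule, was at 5.84, 23.2 and 16.8 CPM, and Eda2r had 50, 0 and 13 counts.

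**Figure D4:**
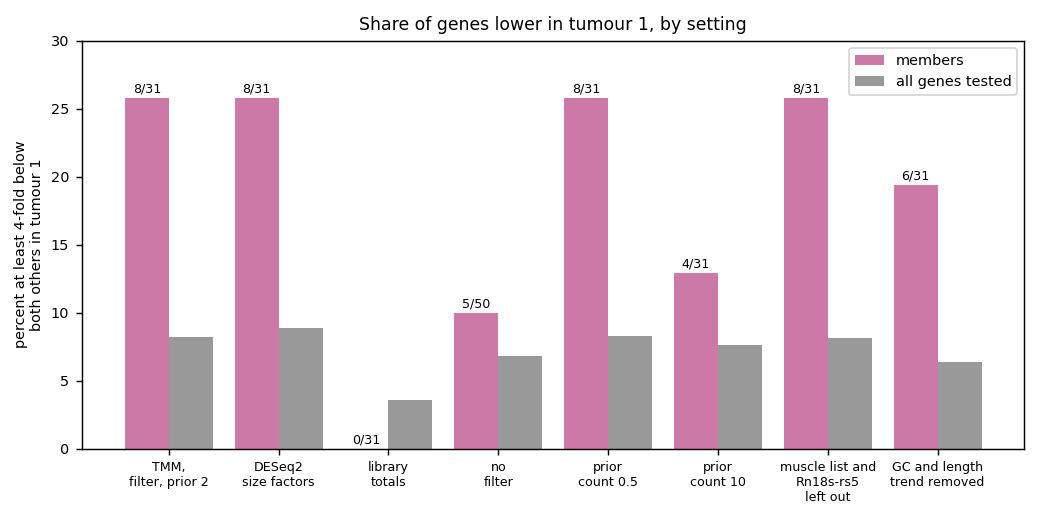
Share of members (pink) and of all genes tested (grey) at least 4-fold below both others in tumour 1, in percent, under the reported setting and 7 others; numbers over the bars are members called of members tested. The members' share lies above that of all genes in 7 of the 8 settings and is 0 with library totals.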

How the data were processed

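RNA of each tumour was sequenced as paired reads of 50 bases, per the labels' protocols. The deposited values are Salmon's estimated counts for each gene symbol, per the file headers, with no scaling for depth or length, and 0 other per-sample columns were left aside. STAR, SAMtools, Picard and build mm10 are named in the submitters' processing notes; for versions, annotation release and strand the sources used here give nothing.

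Estimated counts were rounded. Genes were kept with filterByExpr of edgeR 4.0.16 (R 4.3.3; minimum count 10, minimum total 15), and CPM used TMM-scaled totals, with a prior count of 2 for log2 values. Fold intervals are exact binomial, levels exact Poisson (95%), and both cover counting error only. Lengths, positions and shared 50-base words came from GENCODE M21 (GRCm38), promoters from RefSeq. The members, lists and rules were chosen with earlier results of these data known. Named with values were members 4-fold apart in a tumour, the 12 highest per kilobase and pair partners; of other lists, genes 4-fold apart and the 3 highest. Because the samples form 1 group, no test was run. Alternatives were DESeq2 1.42.0 size factors, library totals, no filter, prior counts of 0.5 and 10, skeletal muscle genes and Rn18s-rs5 left out, a GC and length trend removed, 2-fold in place of 4-fold, and each tumour left out.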

Additional observations from a re-analysis of the deposited data

How the results depend on the processing

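No paired analysis was possible because the samples form 1 group. Counts of members below both others in tumour 1 (8) were 8 with DESeq2 size factors, with a prior count of 0.5 and without muscle genes. They were 6 with the GC and length trend removed, 5 without the filter and 4 with a prior count of 10. Library totals gave 0, and the 2-fold rule gave 16. The members' share was 19.4% with the trend removed, 10% without the filter and 12.9% with a prior count of 10. Over all genes these shares were 6.34%, 6.81% and 7.6%. All-gene shares are not given for the counts at 2-fold in place of 4-fold or with a tumour left out. Nor are they given for any count of tumours 2 and 3 under an alternative setting, the comparison of these 2 tumours included. Those counts cannot be set against a background. Counts above in tumour 1 (1) were 2 with library totals and 3 at 2-fold. In tumour 2, counts above (0) were 1 without the filter and 4 at 2-fold, and those below (1) were 7 without the filter. In tumour 3, counts below (0) were 2 without the filter and 1 at 2-fold. Leaving out 1 tumour compares the remaining pair, and then 0 to 12 members were above in tumour 2 (12 without tumour 3), and in tumour 3, 1 to 9 were above (9 without tumour 2) and 0 to 1 below. For tumour 2 against tumour 3 at 2-fold, 5 members were higher and 1 lower; library totals gave 0 and 2, and no filter gave 9 and 8. With library totals the all-gene median shifted by 0.84 (tumour 1), -0.70 (tumour 2) and -0.14 (tumour 3) in log2 CPM. No called difference changed its direction under these alternatives. The shallowest library limits what can be said of the members below the filter.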
